A study of Drosophila melanogaster with 6 samples.

Results

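The cytochrome P450 genes of Drosophila are described here in larval cuticles, the dissected body wall with epidermis and muscles, of control and tumour-bearing larvae. Members were chosen by symbol alone, as every gene whose symbol is Cyp followed by digits, lower-case letters and digits, with Cyp18a1 left out. This rule found 75 of the 11621 genes in the table, of which 22 belong to the Cyp4 subfamily, 20 to Cyp6, 5 to Cyp9, 7 to Cyp12, 4 to Cyp28 and 17 to other subfamilies. The Ensembl annotation of BDGP6 holds 84 such symbols, and the other 9 were not analysed here.

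Controls were 3 samples of w1118 larvae taken 7 days after egg laying and reared at 25 degrees. The tumour-bearing group was 3 samples of larvae taken at 10 days that carried y, w and ey-flp, the cassette act5C>y+>GFP, the transgene UAS-RasV12, and scrib1 on an FRT82B chromosome opposite FRT82B,tub-gal80. In this MARCM system the ey-flp recombinase makes GFP-marked clones in the eye discs that lack scrib function and express oncogenic RasV12, so the clones arise outside the cuticle. Age, genetic background and the presence of a tumour differ together between the groups and cannot be told apart, and the column headers give every sample a lane label of its own. The methods of the study list RasV12, scrib1 larvae among those moved to a warmer incubator partway through rearing, without saying if the sequenced larvae were, so temperature may differ as well. Each sample pooled cuticles (40 according to the series text, a smaller number in the study's methods), and nothing says whether the 3 samples of a group came from separate cultures, so the p-values measure only the spread between these samples.

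Cytochrome P450 enzymes are haem-containing monooxygenases that insert an oxygen atom from molecular oxygen into their substrate. Most insect P450 enzymes, among them the Cyp4, Cyp6, Cyp9 and Cyp28 members, sit in the endoplasmic reticulum and take electrons from the reductase Cpr. The Cyp12 enzymes are imported into mitochondria and are served by ferredoxin and the ferredoxin reductase encoded by dare. Many Cyp6 and Cyp12 genes are known for the metabolism of insecticides and plant toxins in fat body, midgut and Malpighian tubules, whereas others act on internal lipids, as Cyp4g1 does in the oenocytes, the hydrocarbon-producing cells attached to the epidermis.

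Depth was 62617114 to 84149121 counts per sample. The 20 most abundant genes took 25.9% to 35.9% of the counts in controls and 10.8% to 11.6% in tumour-bearing samples, and TMM factors, which correct for such differences in composition, were 0.63 to 0.84 and 1.33 to 1.44. Without these factors, the median over all tested genes moved, as a log2 fold change, from 0.01 to 0.94, so the directions below are relative to the TMM scale. Control replicate 3 had the lowest level of the 3 controls for 47 of the 68 P450 genes tested, with a median difference of −0.56 on the log2 scale from the other controls, against 0.00 over all genes. Control replicate 2 was the highest for 43 of them (median difference 0.57). The muscle markers summed to 2909131 to 11848949 normalized counts in controls and 932084 to 1345618 in tumour-bearing samples. The epidermal markers summed to 9682166 to 18175096 in controls and 92009 to 130281 in tumour-bearing samples. The epidermal list includes the larval cuticle protein genes Lcp1, Lcp2, Lcp3 and Lcp4. Marker reads of both parts of the labelled tissue were present in every sample, with lower sums without overlap in the tumour-bearing group.

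Of the 75 genes, 68 had enough counts to be tested. In tumour-bearing larvae 25 of them were higher (36.8%) and 17 lower (25.0%) at an edgeR adjusted p under 0.05, and 26 did not pass. Among all 10074 tested genes 23.8% were higher and 23% lower. These are the shares to set beside each count of called genes in the subfamilies and lists below. The median log2 fold change was 0.67 for the P450 genes and 0.01 for all genes. The tumour-bearing samples lay entirely above the controls for 32 P450 genes (47.1%) and entirely below them for 19 (27.9%), against 31.9% and 29.7% of all genes. Scaling by total counts alone gave 40 higher and 9 lower, a share of higher calls among all calls of 81.6% instead of 59.5%, while over all genes that share went from 50.8% to 89.9%. The 14 genes that did not pass with TMM factors but were higher with total counts were Cyp4e2, Cyp4g1, Cyp6a2, Cyp6a23, Cyp6d4, Cyp6g2, Cyp6t3, Cyp6v1, Cyp9h1, Cyp12a4, Cyp28a5, Cyp28d1, Cyp310a1 and Cyp313a1. Genes such as Cyp6a8 passed the filter on low counts only through the tumour-bearing group. Among the 55 P450 genes with at least 10 counts in every sample, 17 were higher and 16 lower, so 51.5% of the calls were higher, against 51.7% over all genes. In these bulk samples a gene can be higher because more cells of a type were present or because each cell held more of its RNA, and these cannot be told apart. Without tumour-bearing replicate 1, 11 of the P450 genes were lower, and 12 were lower without control replicate 1 or without tumour-bearing replicate 2.

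A pair of genes, Cyp4g1 and Cyp4e3, carried most of the P450 reads. Summed over the family, normalized counts (counts scaled to the mean TMM-adjusted library size) were 256182, 306795 and 166629 in control replicates 1, 2 and 3 and 338179, 522409 and 403123 in tumour-bearing replicates 1, 2 and 3. The groups did not overlap in this sum. Cyp4g1 made up 63.9% ± 4.24 (SD, n = 3) of the sum in controls and 46.3% ± 4.75 in tumour-bearing samples, and Cyp4e3 made up 0.0849% ± 0.082 and 25.7% ± 9.91. With both genes set aside, the sums were 81539, 110055 and 67267 in controls and 114838, 121103 and 107412 in tumour-bearing samples, and the groups overlapped. By subfamily, the summed Cyp6 counts were 13795 to 26702 in controls and 33285 to 35681 in tumour-bearing samples, and the Cyp28 counts were 312 to 5220 and 7203 to 10627. The sums of Cyp12 genes (10507 to 15894 against 6348 to 6781) and of the other subfamilies (13445 to 23103 against 7491 to 8188) were lower without overlap, while the Cyp9 sums overlapped (4978 to 19721 against 9312 to 10411).

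**Figure D1:**
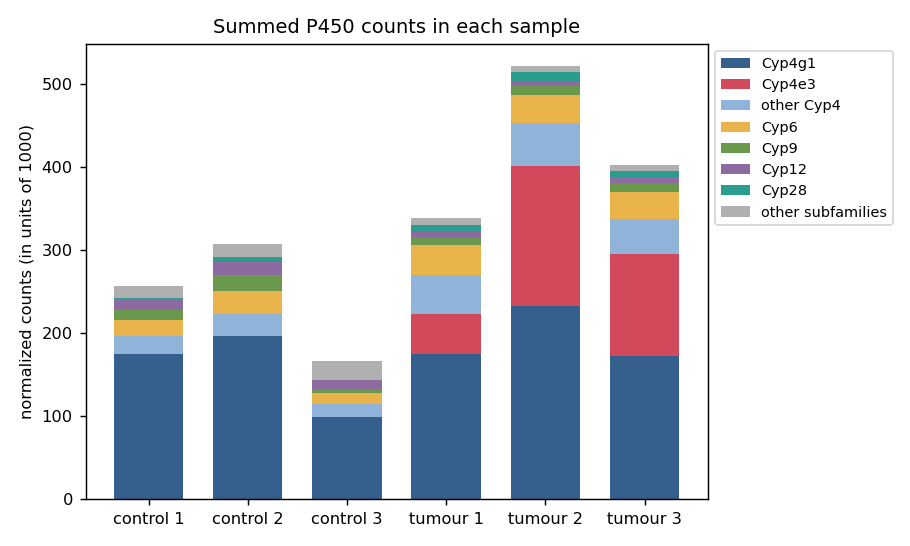
Summed normalized counts (y axis) of all 75 P450 genes in each of the 6 samples (x axis), split into Cyp4g1, Cyp4e3, the other Cyp4 genes and the other subfamilies. Cyp4g1 is the tallest segment in every sample, and the Cyp4e3 segment, 48434 to 168363 counts in the tumour-bearing samples, is too thin to see in the controls.

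Among the 22 Cyp4 genes, all tested, 10 were higher (45.5%) and 6 lower (27.3%), against 23.8% and 23% of all genes. Their median log2 fold change was 0.47. These counts were smaller in most fits that left out a sample, at 6 higher and 2 lower without control replicate 1 and 8 and 2 without control replicate 2. With total counts, 12 were higher, 2 lower and the median was 1.38. Of the tumour-bearing samples, leaving out replicate 1 gave 7 and 2, replicate 2 gave 7 and 3, and replicate 3 gave 7 and 4.

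Cyp4e3, known from the Malpighian tubules for its part in permethrin tolerance, had the largest fitted increase of the family apart from Cyp6a8, a gene with no control counts. Its normalized counts were 171, 535 and 22.7 in control replicates 1, 2 and 3 and 48434, 168363 and 123519 in tumour-bearing replicates 1, 2 and 3, and all later values follow this order. The lowest tumour-bearing sample was far above the highest control, and both groups spread widely. The difference was 469-fold (log2 fold change 8.87 ± 1.43 SE, edgeR adjusted p = 0.0051), and without control replicate 2 the log2 fold change was 10.20 (edgeR adjusted p = 0.0075). Cyp4g1, the oxidative decarbonylase that completes the synthesis of cuticular hydrocarbons, had 174472, 196205 and 99339 in controls and 174907, 232943 and 172192 in tumour-bearing larvae. The groups overlapped and the gene did not pass the test (log2 fold change 0.30 ± 0.30 SE, edgeR adjusted p = 0.44). Scaled by total counts alone, Cyp4g1 was higher (log2 fold change 1.28, edgeR adjusted p = 0.0024).

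The Cyp4ac genes lie side by side on chromosome 2L and went in opposite directions. Cyp4ac3 had 2634, 5825 and 840.4 in controls and 17437, 20424 and 13478 in tumour-bearing larvae, with every tumour-bearing sample above every control (log2 fold change 2.47 ± 0.68 SE, edgeR adjusted p = 0.029). Its call was lost when control replicate 1 was left out (log2 fold change 2.35, edgeR adjusted p = 0.098) and with any 1 tumour-bearing replicate left out (2.45 without replicate 1, 2.32 without replicate 2 and 2.61 without replicate 3, edgeR adjusted p = 0.056 to 0.083), and the log2 fold change was 3.28 without control replicate 2. Its neighbour Cyp4ac2 had 106, 78.5 and 153 in controls and 25.3, 23.9 and 9.31 in tumour-bearing larvae, without overlap and in the reverse direction (log2 fold change −2.52 ± 0.50 SE, edgeR adjusted p = 0.0095). Cyp4ac1, with 60.9 to 108 in controls and 385, 161 and 150.4 in tumour-bearing samples, was higher in the full set of samples (log2 fold change 1.58 ± 0.48 SE, edgeR adjusted p = 0.039). This call did not hold without control replicate 1 or 2 or tumour-bearing replicate 1 or 2 (log2 fold change 1.00 to 1.79, edgeR adjusted p = 0.061 to 0.12), and the lowest of these values, 1.00, was without tumour-bearing replicate 1.

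Cyp4p1 and Cyp4p2 are neighbours on chromosome 2R that were both abundant. Cyp4p1 had 1173, 1419 and 947 in controls and 6696, 7282 and 6613 in tumour-bearing larvae. All 3 tumour-bearing samples were far above the controls and close to each other (log2 fold change 2.54 ± 0.17 SE, edgeR adjusted p = 0.00051). Cyp4p2 had 7369.7, 6697 and 6248 in controls and 12774, 14740.0 and 10794 in tumour-bearing larvae, a smaller step between groups that did not overlap (log2 fold change 0.92 ± 0.15 SE, edgeR adjusted p = 0.0056). The next gene of the row, Cyp4p3, ranged from 163 to 1055 in controls and 537 to 787 in tumour-bearing larvae and did not pass (log2 fold change 0.18 ± 0.62 SE, edgeR adjusted p = 0.83). Cyp4c3 had 43.1, 219.6 and 108 in controls and 496, 309.6 and 1359 in tumour-bearing larvae, with tumour-bearing replicate 3 the highest (log2 fold change 2.55 ± 0.79 SE, edgeR adjusted p = 0.042). It was past the threshold with all samples but not without control replicate 1 (log2 fold change 2.15), control replicate 3 (2.46), tumour-bearing replicate 1 (2.75) or tumour-bearing replicate 3 (1.71), where the edgeR adjusted p was 0.072 to 0.11, and it was 3.25 without control replicate 2.

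Lower Cyp4 genes were found at high, middle and low levels. Cyp4d20, the most abundant of them per length in controls, had 3290.5, 3329 and 1009 in controls and 459, 791 and 610.3 in tumour-bearing larvae, and the groups did not overlap (log2 fold change −2.04 ± 0.49 SE, edgeR adjusted p = 0.019). The call was lost without control replicate 1 or 2 or tumour-bearing replicate 1 or 3 (log2 fold change −2.02 to −1.81, edgeR adjusted p = 0.0504 to 0.067) and with total counts (−1.04, edgeR adjusted p = 0.058). Cyp4e1 had 633, 950.5 and 262 in controls and 71.1, 77.2 and 109 in tumour-bearing larvae, also without overlap (log2 fold change −2.84 ± 0.51 SE, edgeR adjusted p = 0.0070), and its call held with each sample left out. Its abundant neighbour Cyp4e2 showed no such step, with 3582 to 5204 in controls and 4338 to 4642 in tumour-bearing samples (log2 fold change 0.06 ± 0.17 SE, edgeR adjusted p = 0.78). Cyp4g15, the paralogue of Cyp4g1 that is known from the nervous system, had 87.6, 76.9 and 62.6 in controls and 19.01, 21.1 and 42.7 in tumour-bearing larvae and was lower without overlap (log2 fold change −1.45 ± 0.42 SE, edgeR adjusted p = 0.032). Without control replicate 1 or 2 or tumour-bearing replicate 1 or 2 this call was lost (log2 fold change −1.44 to −1.24, edgeR adjusted p = 0.075 to 0.11), and so it was with total counts (−0.49).

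The remaining called Cyp4 genes changed less or were of low level. Cyp4ae1 (1.57), Cyp4d2 (1.31) and Cyp4d14 (1.15), which are adjacent on the X chromosome, were higher on the log2 scale, as was Cyp4d8 (3.16, at 2.16 to 9.23 counts in controls and 47.3 to 68.99 in tumour-bearing samples). Cyp4d2 and Cyp4ae1 overlap an antisense transcript over 2436 and 1608 bases, and Cyp4d14 overlaps ND-B14.5A and an antisense transcript over 1647 bases, and the library kit does not keep strand. The call of Cyp4d14 was lost without control replicate 1 or 2 or tumour-bearing replicate 2 or 3 (1.03 to 1.32, edgeR adjusted p = 0.056 to 0.11). Cyp4ad1 (−1.63) and Cyp4d21 (−2.41), the latter also known as sxe1 and enriched in males, were lower at means under 50 counts, and both lost the call without control replicate 1 or 2 or tumour-bearing replicate 1 or 2 (edgeR adjusted p = 0.058 to 0.090) and with total counts (log2 fold change −0.65 and −1.43). Cyp4ad1 also lost it without tumour-bearing replicate 3 (−1.66, edgeR adjusted p = 0.080), where Cyp4d21 was −3.10. In addition to Cyp4g1, Cyp4p3 and Cyp4e2, Cyp4d1, Cyp4aa1 and Cyp4s3 did not pass, with log2 fold changes of 0.63, −0.07 and −0.68. For Cyp4d1 this depended on control replicate 3, without which it was higher (1.43, edgeR adjusted p = 0.032).

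Of 20 Cyp6 genes, 19 were tested, with 7 higher (36.8%), 4 lower (21.1%) and a median log2 fold change of 0.86. Over all genes the called shares were 23.8% and 23%. The groups stood apart for 11 in the higher (57.9%) and 4 in the lower direction (21.1%), against 31.9% and 29.7% of all genes. Without control replicate 2, which had the highest level for many of these genes, 10 were higher and the median was 1.72. With total counts 14 were higher and 2 lower (median 1.76), and of the 16 with at least 10 counts in every sample 4 were higher and 4 lower.

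Of the 7 higher Cyp6 genes, 6 lie in 1 row of genes on chromosome 2R (BDGP6, chr2R:14871366-14903095, 31730 bp), which holds 8 Cyp6a genes and Cyp317a1. In this row 7 of 9 genes were higher, 1 was lower and 1 did not pass, and the median log2 fold change was 4.16. Cyp6a8, which is induced by xenobiotics such as barbiturates and overexpressed in DDT-resistant strains, had no count in any control and 199, 354 and 269.9 normalized counts in the tumour-bearing samples. Against a floor of 3 counts over the whole control group it was at least 196-fold higher (edgeR adjusted p = 0.0014), a bound that covers counting error only. Cyp6a20, known for its effect on male aggression, had 3.08, 6.41 and 1.08 in controls and 331, 401 and 554 in tumour-bearing larvae. The control values correspond to a handful of reads, and all tumour-bearing samples were more than an order of magnitude above them (log2 fold change 6.97 ± 0.58 SE, edgeR adjusted p = 0.00084). Without control replicate 2 its log2 fold change was 7.70.

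Cyp6a17, which influences temperature preference in adult flies, reached a higher level. It had 137, 223 and 39.9 in controls and 4170.2, 3975 and 4562 in tumour-bearing larvae, and the tumour-bearing samples were close to each other while control replicate 3 was the lowest (log2 fold change 5.01 ± 0.63 SE, edgeR adjusted p = 0.0023), with a log2 fold change of 5.59 without control replicate 2. Cyp6a9 had 555, 936 and 327 in controls and 4752, 5719 and 5223 in tumour-bearing larvae, and the groups were well apart (log2 fold change 3.11 ± 0.40 SE, edgeR adjusted p = 0.0024). Cyp6a19 had 66.1, 88.2 and 33.4 in controls and 683, 915 and 774 in tumour-bearing larvae, again without overlap (log2 fold change 3.67 ± 0.38 SE, edgeR adjusted p = 0.0014). These 2 genes lie on opposite strands and share 397 bases of exon, and reads from the shared stretch cannot be assigned to either gene without strand. Cyp317a1, at the end of the row, had 27.7, 65.7 and 49.6 in controls and 890.5, 1005 and 666 in tumour-bearing larvae, with no control near the lowest tumour-bearing sample (log2 fold change 4.16 ± 0.37 SE, edgeR adjusted p = 0.00093). It overlaps Kank on the other strand over 1331 bases. Cyp6a22 rose at a low level, from 0 to 6.41 in controls and 75.2 to 123 in tumour-bearing samples (log2 fold change 4.95 ± 0.88 SE, edgeR adjusted p = 0.0065), with log2 fold changes of 6.0 without control replicate 2 and 4.25 without control replicate 3.

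Not all genes of the row followed. Cyp6a23, between Cyp6a17 and Cyp6a19, had 1904, 3589 and 689 in controls and 5558, 3935 and 3489.6 in tumour-bearing larvae. Control replicate 2 lay inside the tumour-bearing range and the gene did not pass (log2 fold change 1.07 ± 0.57 SE, edgeR adjusted p = 0.17), but without control replicate 2 it was higher (log2 fold change 1.72, edgeR adjusted p = 0.048). Cyp6a21, between Cyp6a20 and Cyp6a8, had 1338, 1217 and 941 in controls and 539, 547 and 552 in tumour-bearing larvae, so that the tumour-bearing samples were nearly equal and all below the controls (log2 fold change −1.09 ± 0.15 SE, edgeR adjusted p = 0.0029). This lower call was lost with total counts (−0.14, edgeR adjusted p = 0.40).

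**Figure D2:**
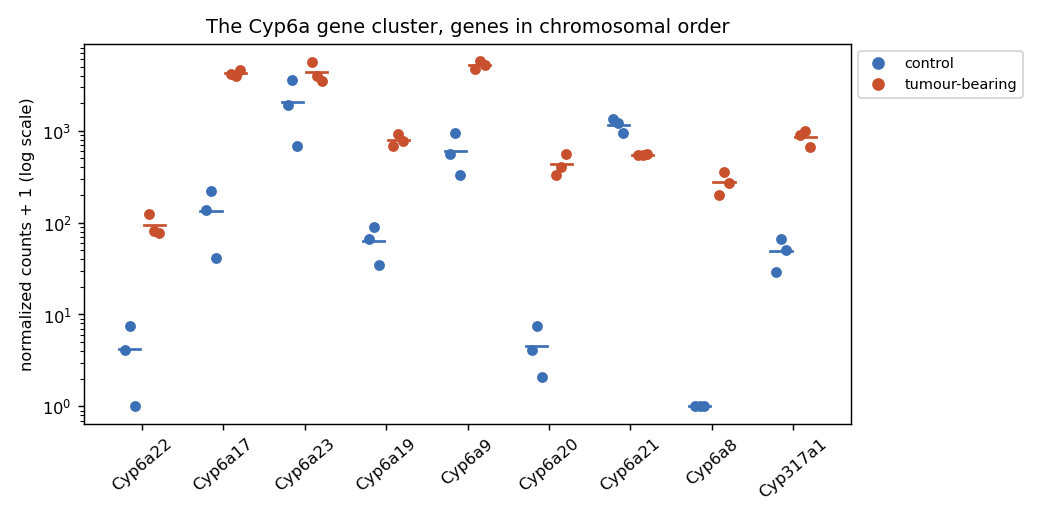
Normalized counts plus 1 (y axis, log scale) of the 9 genes of the Cyp6a row in chromosomal order (x axis), with a point for each sample and a bar for each group mean. The tumour-bearing points lie above the controls for 7 genes and below them for Cyp6a21. For Cyp6a23 the groups overlap, and the controls of Cyp6a8, all without counts, sit at 1.

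Outside the row, the Cyp6 genes moved in both directions. Cyp6a13 was higher, with 272, 393 and 257 in controls and 1014, 759 and 869 in tumour-bearing larvae, and the groups did not overlap (log2 fold change 1.52 ± 0.21 SE, edgeR adjusted p = 0.0032). Cyp6a2, another gene overexpressed in DDT-resistant flies and the most abundant Cyp6 gene per length, had 4261, 9923 and 1957 in controls and 10359.9, 11006 and 10005 in tumour-bearing larvae. Each tumour-bearing sample exceeded each control, but control replicate 2 came close to them and the gene did not pass (log2 fold change 0.96 ± 0.56 SE, edgeR adjusted p = 0.20). Without control replicate 2 it was higher (log2 fold change 1.73, edgeR adjusted p = 0.020). Cyp6g1, whose overexpression gives resistance to DDT and neonicotinoids, had 228, 322 and 59.3 in controls and 213, 152 and 64.4 in tumour-bearing larvae, overlapping and not past the test (log2 fold change −0.50 ± 0.70 SE, edgeR adjusted p = 0.58). Its neighbours Cyp6g2 (0.86) and Cyp6t3 (0.68) did not pass on the TMM scale either. Cyp6g2 was higher with upper-quartile factors (log2 fold change 0.98, edgeR adjusted p = 0.0498), total counts (1.76, edgeR adjusted p = 0.0056) and DESeq2 (0.84, adjusted p = 0.039), and Cyp6t3 with total counts (1.58, edgeR adjusted p = 0.0089).

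Cyp6d5 and Cyp6d2 had the largest decreases among Cyp6 genes. Cyp6d5, inducible by phenobarbital, had 1102, 516 and 1788 in controls and 34.5, 54.2 and 73.7 in tumour-bearing larvae. The lowest control was well above the highest tumour-bearing sample (log2 fold change −4.39 ± 0.57 SE, edgeR adjusted p = 0.0025). Cyp6d2, linked to the metabolism of the plant toxin camptothecin, had 2783, 2457 and 2016 in controls and 114, 108 and 330.3 in tumour-bearing larvae, with tumour-bearing replicate 3 the highest of its group and still far below the controls (log2 fold change −3.71 ± 0.51 SE, edgeR adjusted p = 0.0031). Without that sample the log2 fold change was −4.44. Cyp6d2 shares 897 bases with the gene nsr. The other Cyp6d gene, Cyp6d4, had 1177 to 2055 in controls and 2116 to 2914 in tumour-bearing larvae and did not pass (log2 fold change 0.60 ± 0.23 SE, edgeR adjusted p = 0.079), but it was higher without control replicate 2 (0.79, edgeR adjusted p = 0.040) and with upper-quartile scaling (0.72, edgeR adjusted p = 0.046).

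Cyp6u1 was lower by a small step, from 2055 to 2669 in controls to 1714 to 1763 in tumour-bearing samples (log2 fold change −0.41 ± 0.12 SE, edgeR adjusted p = 0.036). The call was lost with control replicate 1 or any 1 tumour-bearing replicate left out (log2 fold change −0.45 to −0.40, edgeR adjusted p = 0.074 to 0.11) and with upper-quartile scaling (−0.29), and the direction turned with total counts (0.54, edgeR adjusted p = 0.0066). Cyp6v1 and Cyp6w1 overlapped between the groups and did not pass, at log2 fold changes of 0.04 and 0.66. Cyp6t1 was not tested, with 2 raw counts in controls and 6 in tumour-bearing samples.

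Cyp9 genes showed the largest fall and no common direction. Among the 5 genes, 4 were tested, 1 was higher and 1 lower, with a median log2 fold change of −0.52 that turned to 0.51 with total counts and to 0.07 without control replicate 2, and 2 genes were lower without control replicate 3. Cyp9b2 had 1184, 1349.6 and 683 in controls and 21.8, 22.05 and 30.2 in tumour-bearing larvae, and the tumour-bearing samples were all far below every control (log2 fold change −5.43 ± 0.35 SE, edgeR adjusted p = 0.00046). This was the most negative log2 fold change of the 68 genes. Its neighbour Cyp9b1 was too low to test, with raw counts of 7, 2 and 8 in controls and 7, 5 and 8 in tumour-bearing samples. Cyp9f2, the most abundant Cyp9 gene per length in tumour-bearing larvae, rose from 2345, 3158 and 2261 to 5987, 5818 and 6053, values close together within each group (log2 fold change 1.20 ± 0.15 SE, edgeR adjusted p = 0.0023).

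Cyp9c1, the most abundant Cyp9 gene per length in controls, had 8438, 14969 and 1928 in controls and 3115, 3921 and 4147 in tumour-bearing larvae. Control replicates 1 and 2 were above and control replicate 3 below all tumour-bearing samples, and the gene did not pass (log2 fold change −1.18 ± 0.67 SE, edgeR adjusted p = 0.19). Without control replicate 3 it was lower (log2 fold change −1.67, edgeR adjusted p = 0.0040). It overlaps an antisense transcript over 1711 bases. Cyp9h1 had 97.1 to 242 in controls and 152 to 184 in tumour-bearing larvae and did not pass (log2 fold change 0.15 ± 0.38 SE, edgeR adjusted p = 0.77).

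The mitochondrial Cyp12 genes were split by level. All 7 were tested, 2 were higher and 3 lower, and their median log2 fold change was 0.18. The median was −0.02 without control replicate 3 and 1.15 with total counts. Of the 5 genes with at least 10 counts in every sample, none was higher and 3 were lower, with a median of −0.75. The 2 higher genes are the near-identical, adjacent copies Cyp12d1-p and Cyp12d1-d, which respond to xenobiotics and are overexpressed in insecticide-resistant flies. Cyp12d1-p had 19.99, 14.4 and 10.8 in controls and 83.8, 72.6 and 76.8 in tumour-bearing larvae (log2 fold change 2.37 ± 0.35 SE, edgeR adjusted p = 0.0036), and Cyp12d1-d had 19.99, 11.2 and 9.71 in controls and 67.6, 60.6 and 69.02 in tumour-bearing larvae (log2 fold change 2.27 ± 0.39 SE, edgeR adjusted p = 0.0057). In both, the tumour-bearing samples were well above the controls at a low level, and the split of reads between the copies is uncertain.

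The lower Cyp12 genes were abundant. Cyp12e1, the most abundant Cyp12 gene per length in both groups, had 5937, 7083 and 4793 in controls and 2382, 2479 and 2359 in tumour-bearing larvae, without overlap (log2 fold change −1.30 ± 0.16 SE, edgeR adjusted p = 0.0021). Cyp12a5, which affects resistance to the neonicotinoid nitenpyram, had 2511, 3796 and 2138 in controls and 636, 631 and 879 in tumour-bearing larvae and was lower in every tumour-bearing sample (log2 fold change −1.98 ± 0.26 SE, edgeR adjusted p = 0.0029). The adjacent Cyp12a4, whose overexpression gives resistance to lufenuron, had 1009, 1425 and 784 in controls and 1136, 1236 and 1266 in tumour-bearing larvae, values that overlapped (log2 fold change 0.18 ± 0.22 SE, edgeR adjusted p = 0.54). Cyp12b2 had 3583, 3494 and 2453 in controls and 1837, 1998 and 1690.5 in tumour-bearing larvae, lower without overlap (log2 fold change −0.79 ± 0.17 SE, edgeR adjusted p = 0.013), but with total counts the direction turned (log2 fold change 0.17, edgeR adjusted p = 0.29). Cyp12c1 had 46.1, 70.5 and 317 in controls and 205, 215 and 440.5 in tumour-bearing larvae, with control replicate 3 above tumour-bearing replicates 1 and 2, and did not pass (log2 fold change 0.98 ± 0.79 SE, edgeR adjusted p = 0.34). Without control replicate 3 it was higher (2.29, edgeR adjusted p = 0.0105).

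All 4 Cyp28 genes had every tumour-bearing sample above every control, and 2 of them passed the test, with a median log2 fold change of 2.10. Over all tested genes 31.9% stood apart in that direction and 23.8% were called higher. Cyp28d2 had 98.4, 73.7 and 100.3 in controls and 311, 382 and 357 in tumour-bearing larvae, close within each group (log2 fold change 1.94 ± 0.22 SE, edgeR adjusted p = 0.0017). Its neighbour Cyp28d1, known for the metabolism of nicotine, had 0, 41.7 and 24.8 in controls and 91.5, 107 and 118 in tumour-bearing larvae. Control replicate 1 was at 0, and with that spread the gene did not pass (log2 fold change 2.25 ± 1.04 SE, edgeR adjusted p = 0.12), whereas without control replicate 1 it was higher (log2 fold change 1.67, edgeR adjusted p = 0.035). Cyp28a5, the most abundant Cyp28 gene per length, had 1664, 5102 and 186 in controls and 8953, 10119 and 6697 in tumour-bearing larvae, with a wide spread in controls, and did not pass (log2 fold change 1.89 ± 1.02 SE, edgeR adjusted p = 0.17). Without control replicate 2 its log2 fold change was 3.19, and with total counts it was higher (2.97, edgeR adjusted p = 0.034). Cyp28c1 rose at a low level, from 1.08 to 3.21 in controls to 18.4 to 48.6 in tumour-bearing samples (log2 fold change 3.74 ± 0.65 SE, edgeR adjusted p = 0.0059). Without control replicate 1, 3 of the 4 genes were higher, and with total counts all 4 were (median 3.08). The median was 3.11 without control replicate 2, and 2 genes had at least 10 counts in every sample, of which 1 was higher.

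Of the 17 genes in other subfamilies, 12 were tested, with 3 higher and 3 lower and a median log2 fold change of −0.44, which was 0.49 with total counts (5 higher and 2 lower), 0.01 without tumour-bearing replicate 2 and 0.19 without tumour-bearing replicate 3. With all 17 in the fit, by DESeq2 or with no filter on low counts, it was 1.21. Left-out samples moved these counts, to 1 higher without control replicate 1 or tumour-bearing replicate 1, and to 2 lower without tumour-bearing replicate 1 or 2. Cyp313b1, the most abundant of them per length, had 10129.7, 12755 and 7464 in controls and 4660.1, 4881 and 5099 in tumour-bearing larvae and was lower without overlap (log2 fold change −1.05 ± 0.21 SE, edgeR adjusted p = 0.0090), which no longer passed with total counts (log2 fold change −0.08, edgeR adjusted p = 0.64). Cyp318a1 had 514, 673 and 269 in controls and 68.99, 86.3 and 31.02 in tumour-bearing larvae, also without overlap (log2 fold change −2.96 ± 0.52 SE, edgeR adjusted p = 0.0067). Its neighbour Cyp311a1, which acts in lipid metabolism of the anterior midgut, was lower as well, at 69.2 to 152 in controls and 9.19 to 25.6 in tumour-bearing samples (log2 fold change −2.67 ± 0.59 SE, edgeR adjusted p = 0.013). The Cyp311a1 call was lost without tumour-bearing replicate 1 (−2.47, edgeR adjusted p = 0.0503) or replicate 2 (−2.42, edgeR adjusted p = 0.052), and the log2 fold change was −3.28 without tumour-bearing replicate 3.

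The size of the Cyp312a1 difference depended on control replicate 3. The gene had 2219, 1499 and 14868 in controls and 844, 1175 and 1139 in tumour-bearing larvae, with every control above every tumour-bearing sample and control replicate 3 several-fold above the other 2 controls. It did not pass (log2 fold change −2.56 ± 0.92 SE, edgeR adjusted p = 0.064). Without control replicate 3 the log2 fold change was −0.84 and the gene was lower (edgeR adjusted p = 0.025), as it was without control replicate 2 (−3.02, edgeR adjusted p = 0.033) and by DESeq2 (−2.57, adjusted p = 0.0036).

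Cyp313a4 was higher, with 166, 268 and 94.9 in controls and 669, 400.5 and 579 in tumour-bearing larvae and no overlap (log2 fold change 1.64 ± 0.42 SE, edgeR adjusted p = 0.022). Without control replicate 1 or tumour-bearing replicate 1 or 3 its call was lost (log2 fold change 1.47 to 1.61, edgeR adjusted p = 0.061 to 0.077). Cyp49a1, a mitochondrial P450 gene by its sequence family, had 9.23, 17.6 and 5.39 in controls and 32.4, 27.6 and 82.2 in tumour-bearing larvae, with tumour-bearing replicate 3 the highest (log2 fold change 2.16 ± 0.67 SE, edgeR adjusted p = 0.039). It lost the call with control replicate 1 or 3 or any 1 tumour-bearing replicate left out (1.5 to 2.43, edgeR adjusted p = 0.059 to 0.12), with the lowest of these values without tumour-bearing replicate 3. Cyp301a1, needed for the adult cuticle, had 143, 125 and 129 in controls and 121, 83.6 and 146 in tumour-bearing larvae, which overlapped (log2 fold change −0.18 ± 0.28 SE, edgeR adjusted p = 0.62). Cyp303a1, required for the development of sensory organs, had 55.4, 44.9 and 48.5 in controls and 26.05, 33.1 and 32.6 in tumour-bearing larvae, below the controls in each tumour-bearing sample, and did not pass (log2 fold change −0.70 ± 0.29 SE, edgeR adjusted p = 0.094). It overlaps heix on the other strand over 919 bases. Cyp310a1 had 9.23, 28.9 and 21.6 in controls and 46.5, 21.1 and 119 in tumour-bearing larvae and did not pass (log2 fold change 1.64 ± 0.76 SE, edgeR adjusted p = 0.12). Neither did Cyp313a1 or Cyp304a1, at log2 fold changes of 1.20 and −0.79.

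**Figure D3:**
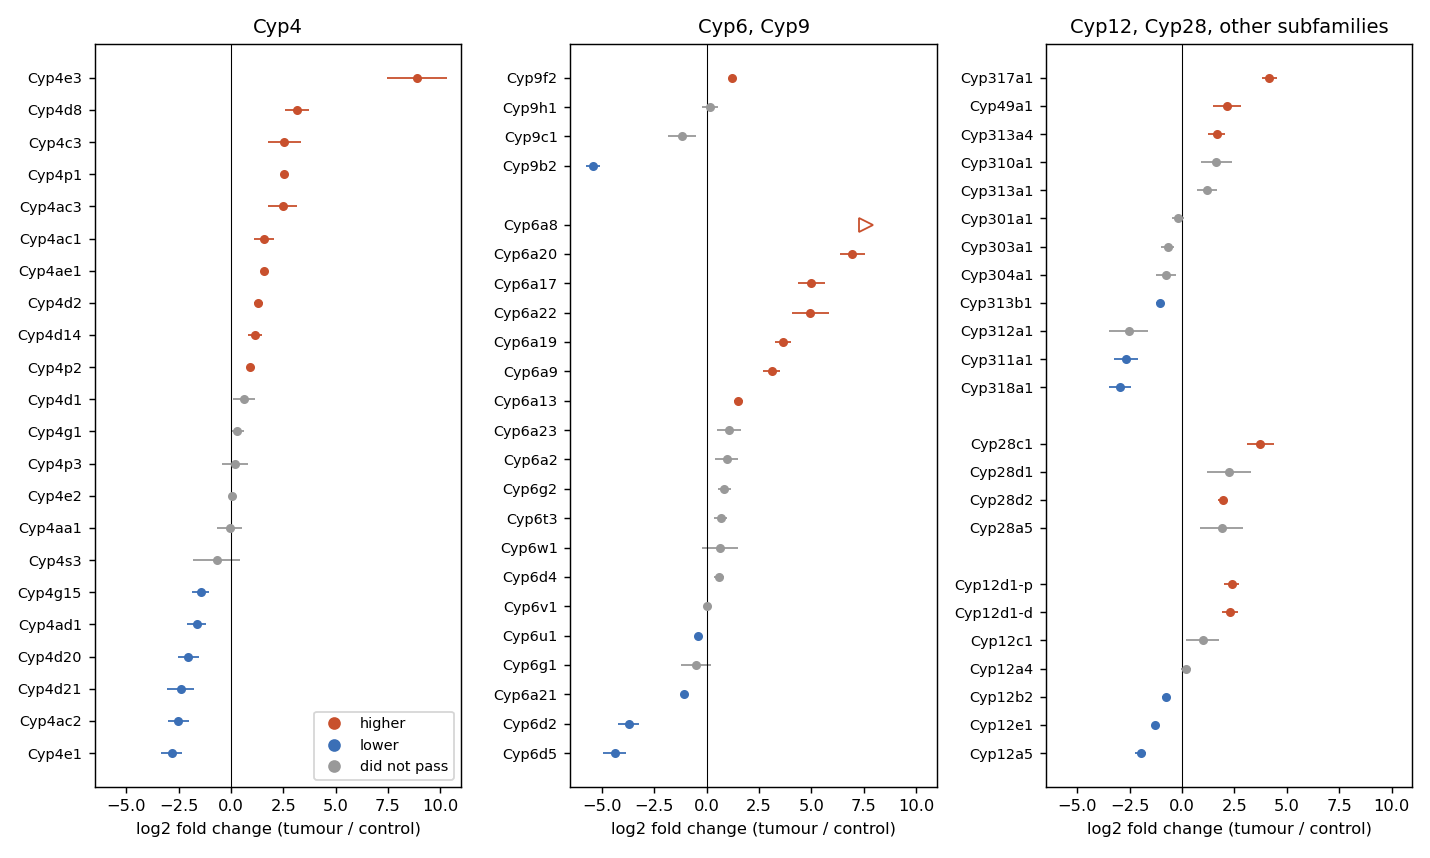
Log2 fold changes of tumour-bearing over control samples (x axis) with their standard errors for the 68 P450 genes tested, in panels by subfamily, red where higher, blue where lower and grey where the test was not passed. The open triangle of Cyp6a8 marks a lower bound against 3 control counts, and each subfamily except Cyp28 holds genes on both sides of 0.

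The 5 genes of these subfamilies that were not tested were near 0 in most samples. Cyp313a5, Cyp313a2 and Cyp313a3, a row of 3 genes on chromosome 3R, had raw counts of 120, 90 and 80 in tumour-bearing replicate 3 and of 0 to 8 in the other 5 samples. That sample held most of their reads. Cyp309a2 had 30, 16 and 6 raw counts in the tumour-bearing samples and 1 count, in control replicate 3, among the controls. The ratio of its raw counts pooled over each group, scaled by the pooled TMM-adjusted library sizes, was 30.1 (95% counting interval 5.17 to 1213, counting error only). Cyp309a1, beside it, had 0, 0 and 22 raw counts in controls and 33, 6 and 8 in tumour-bearing samples, which overlapped.

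Levels of different genes were compared as normalized counts per kb of exon. By this measure Cyp4g1 ranked first in both groups, at 68746 ± 22302 (SD, n = 3) in controls and 84839 ± 15058 in tumour-bearing samples. In controls the next genes were Cyp9c1 (4845 ± 3741), Cyp313b1 (4732 ± 1237), Cyp4p2 (3811 ± 318), Cyp12e1 (3663 ± 706) and Cyp6a2 (3214 ± 2449). The means of these 5 lay within the spread of the most variable of them, and their order is not resolved by 3 samples. In tumour-bearing samples Cyp4e3 was second with a level of 62847 ± 33571, after rank 32 in controls (135 ± 146), and its spread reached the level of Cyp4g1. Cyp4ac3 (10656 ± 2169), Cyp4p2 (7186 ± 1110.4), Cyp6a2 (6247 ± 303), Cyp28a5 (4864 ± 985) and Cyp4p1 (4086 ± 217) followed. Cyp9c1 went from rank 2 to rank 14, Cyp313b1 from 3 to 13 and Cyp12e1 from 5 to 15.

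**Figure D4:**
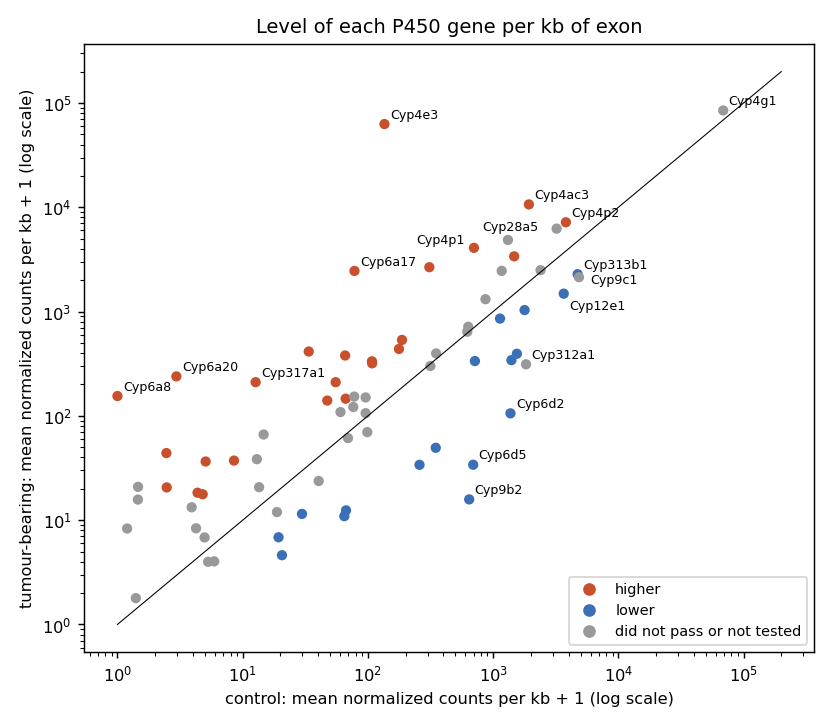
Mean normalized counts per kb of exon plus 1 in controls (x axis) and tumour-bearing samples (y axis), both on log scales, for all 75 P450 genes, with the line of equal levels (red higher, blue lower, grey not past the test or not tested). Cyp4g1 lies close to the line at the top right, Cyp4e3 far above it, and Cyp9b2, Cyp6d5 and Cyp6d2 well below it.

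Neighbouring P450 genes were grouped where gaps were at most 20 kb, which placed 40 of the 75 genes in 13 rows. Among the genes in rows, 34 were tested, 17 were higher (50%) and 8 lower (23.5%), with a median log2 fold change of 1.11. Among the others, 34 were tested, 8 were higher (23.5%) and 9 lower (26.5%), with a median of 0.10. Over all 10074 tested genes, 23.8% were higher and 23% lower, close to the shares outside rows and to the lower share in rows. The Cyp6a row alone holds 7 of the 17 higher genes in rows. Of these, Cyp6a8, Cyp6a20 and Cyp6a22 had 0 to 4 raw counts in each control. They passed the filter on low counts only through the tumour-bearing group, as did Cyp12d1-p and Cyp12d1-d in another row. The same held for Cyp28c1, Cyp4d8 and Cyp49a1 outside the rows. The higher shares and medians in and outside rows thus depend in part on the filter. Cyp4d21, a lower gene outside the rows, passed it only through the controls. Calls went in both directions in 2 rows, Cyp6a and Cyp4ac, only to higher in 4 (Cyp28d, Cyp4p, Cyp12d1 and the Cyp4d row on the X chromosome) and only to lower in 4 (Cyp9b, Cyp4ad1 with Cyp4e, Cyp12a and Cyp311a1 with Cyp318a1). No member of the remaining 3 rows was called, and in 2 of those no gene was tested. Adjacent copies can share reads, so members of a row are not independent.

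On the TMM scale, genes that supply P450 enzymes with electrons or haem were lower or did not pass the test. Among all tested genes 23% were lower and 23.8% higher. Of 5 redox partners tested, 3 were lower and none higher, while with total counts all 5 were higher and the median log2 fold change went from −0.51 to 0.44. Cpr, the reductase of the microsomal P450 enzymes, had 17555, 15508 and 12172 in controls and 10598, 10699 and 10437 in tumour-bearing larvae, all tumour-bearing samples below the controls (log2 fold change −0.51 ± 0.16 SE, edgeR adjusted p = 0.043). The mitochondrial reductase dare (log2 fold change −0.51 ± 0.10 SE, edgeR adjusted p = 0.0097) and the ferredoxin CG1319 (log2 fold change −0.54 ± 0.12 SE, edgeR adjusted p = 0.015) were lower by similar amounts, and the ferredoxin Fdxh did not pass (log2 fold change 0.19 ± 0.12 SE, edgeR adjusted p = 0.23). The list had 1 lower gene without control replicate 1, tumour-bearing replicate 2 or tumour-bearing replicate 3. Among 8 genes of haem synthesis and breakdown, 3 were lower and none higher (with total counts, 1 lower and 3 higher), and the median was −0.50. Pbgs, the porphobilinogen synthase of that pathway, had 34807, 22748 and 22816 in controls and 1994, 1772 and 2193 in tumour-bearing larvae, a fall without overlap (log2 fold change −3.75 ± 0.24 SE, edgeR adjusted p = 0.00044). Alas, which starts haem synthesis, did not pass (log2 fold change −0.52 ± 0.22 SE, edgeR adjusted p = 0.10). The lower counts for haem genes were 2 without tumour-bearing replicate 1 and 2 without tumour-bearing replicate 2.

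Regulators and phase II enzymes were counted beside the family (23.8% of all tested genes were higher and 23% lower). Of 7 transcription factors and cofactors of detoxification genes, 2 were higher. These were maf-S, the partner of Cnc (log2 fold change 0.57 ± 0.11 SE, edgeR adjusted p = 0.0083), and the juvenile hormone receptor Met (log2 fold change 0.47 ± 0.14 SE, edgeR adjusted p = 0.040). With any 1 control replicate or tumour-bearing replicate 1 or 2 left out, 1 gene of this list was higher, and without control replicate 3 another was lower. With total counts 6 of the 7 were higher, and the median log2 fold change went from 0.19 to 1.09. The transcripts of cnc (log2 fold change −0.01 ± 0.21 SE, edgeR adjusted p = 0.97), of its inhibitor Keap1 (log2 fold change 0.24 ± 0.32 SE, edgeR adjusted p = 0.56) and of the xenobiotic-responsive nuclear receptor Hr96 (log2 fold change 0.15 ± 0.099 SE, edgeR adjusted p = 0.25) did not pass. Of 30 glutathione transferases tested, 5 were higher and 12 lower with a median log2 fold change of −0.47, and with total counts 11 were higher, 3 lower and the median 0.56. Without tumour-bearing replicate 3, 3 of them were higher. GstD1, a marker of the oxidative stress response, was lower, with 113634, 76569.7 and 74622 in controls and 27769.8, 31664 and 39941 in tumour-bearing larvae (log2 fold change −1.41 ± 0.25 SE, edgeR adjusted p = 0.0062). Of 8 UDP-glycosyltransferases, 2 were higher and none lower (1 higher without control replicate 2, tumour-bearing replicate 2 or tumour-bearing replicate 3, and 3 higher and 2 lower without control replicate 3). With total counts 5 of the 8 were higher, and by DESeq2 4 of 13.

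Markers of the cells that are known for P450 expression also differed between samples (23.8% of all tested genes were higher and 23% lower). Of 5 oenocyte markers, 1 was higher and 2 lower (0 to 1 higher and 1 to 2 lower with a sample left out), and their sum was 137203 to 179102 normalized counts in controls and 105378 to 156677 in tumour-bearing samples. CG18609 had 243, 441 and 0 in controls and 7598, 7889 and 7482 in tumour-bearing larvae (log2 fold change 5.08 ± 1.44 SE, edgeR adjusted p = 0.031), and the fatty acid synthase FASN2 had 16200.2, 22826 and 2333 in controls and 29758, 42998 and 26923 in tumour-bearing larvae (log2 fold change 1.27 ± 0.76 SE, edgeR adjusted p = 0.21). The lower markers were FarO, with 16186, 14336 and 16722 in controls and 3654, 3889 and 3472 in tumour-bearing larvae (log2 fold change −2.10 ± 0.12 SE, edgeR adjusted p = 0.00040), and FASN3, with 144146, 122979 and 116824 in controls and 64753, 98362 and 64622 in tumour-bearing larvae (log2 fold change −0.75 ± 0.23 SE, edgeR adjusted p = 0.038), and spidey did not pass (log2 fold change 0.77 ± 0.29 SE, edgeR adjusted p = 0.071). Control replicate 3 was the lowest and control replicate 2 the highest control for CG18609, FASN2 and spidey. For FASN3 control replicate 3 was also the lowest but control replicate 1 the highest, and for FarO control replicate 3 was the highest. Of 8 fat body markers, 1 was higher and 1 lower, with sums of 3366 to 17563 in controls, highest in control replicate 3, and 2129 to 15570 in tumour-bearing samples.

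Malpighian tubule markers summed to 1108 to 1438 in controls and 945 to 1984 in tumour-bearing samples, and of 5 tested 2 were higher and 1 lower (1 higher without control replicate 1 or 2 or tumour-bearing replicate 1 or 3). Uro, a defining tubule gene, had 0, 0 and 2.16 in controls and 134, 20.2 and 382 in tumour-bearing larvae (edgeR adjusted p = 0.012). Drip was also higher (log2 fold change 1.11 ± 0.27 SE, edgeR adjusted p = 0.019), and Alp4 was lower, with 941, 519 and 348 in controls and 94.3, 69.8 and 86.1 in tumour-bearing larvae (log2 fold change −2.85 ± 0.41 SE, edgeR adjusted p = 0.0035). Midgut markers summed to 65.7 to 4292 in controls, highest in control replicate 3, and 69.8 to 363 in tumour-bearing samples. At least 1 control was at 0 for 6 of 14, and at least 1 tumour-bearing sample for 6. Of 8 tested, 2 were higher (1 without control replicate 1 or tumour-bearing replicate 1 or 2). The median log2 fold change was −2.64, and −0.69 without control replicate 3. The higher ones were Amy-p and Amy-d, near-identical copies with up to 3.21 normalized counts in controls and up to 22.5 and 26.7 in tumour-bearing samples. Like Uro, both passed the filter on low counts only through the tumour-bearing group. With at least 10 counts required in every sample, no midgut marker was left to test. By DESeq2 3 of 14 midgut markers were lower. Of 7 haemocyte markers 6 were higher, with sums of 34828 to 63069 in controls and 110487 to 296339 in tumour-bearing samples, and 3 were higher without control replicate 1. Muscle markers (7 of 10 lower, median log2 fold change −3.06) and epidermal markers (7 of 8 lower, median −4.70, and 4 lower without tumour-bearing replicate 1) fell. The size of the epidermal fall depended on the most abundant genes. With the 20 most abundant genes left out, 4 epidermal markers were tested, 3 were lower and the median was −1.85. Among all tested genes 23.8% were higher and 23% lower. The part of these marker shifts in the P450 results was not tested.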

How the data were processed

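The authors deposited 1 table of 11621 genes that gives raw read counts per gene for each of the 6 samples, made from unstranded Illumina TruSeq libraries of cuticle RNA. The submitters' processing notes list TopHat and Bowtie, HTSeq, DESeq2, bcl2fastq and FastQC, without versions, and BDGP6 as the genome build. The table's normalized values and the authors' fold changes and p-values for the same comparison were not used.

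Samples were grouped by the sample labels. Counts were fitted with edgeR 4.0.16 (R 4.3.3) after filterByExpr and TMM, using its robust quasi-likelihood test, and p-values were adjusted by Benjamini-Hochberg over all 10074 genes kept (threshold 0.05). For display, each count was divided by its sample's library size after TMM scaling and multiplied by the mean of these sizes (normalized counts). Levels per kb divide them by exon length from the Ensembl annotation, in which 74 of the 75 P450 genes were found by identifier and Cyp6a21 by its Entrez number. Standard errors are the unshrunken coefficient over the square root of F. With a control group at 0, a bound against 3 counts over the group replaces the fitted fold change, and medians are the same with Cyp6a8 at that bound. At 3 samples a group the precision is set by the spread between samples more than by depth, and counting intervals cover counting error only.

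Named with values were, per subfamily, up to 4 increases and 4 decreases among genes past the test whose higher group averaged 100 normalized counts or more, the most abundant gene per length, and a set of well-studied P450 genes. Other genes were named after their values were seen. The members and gene lists were chosen with earlier results of these data known, so counts over them are descriptions. Alternatives were RLE, upper-quartile and total-count scaling, the 20 most abundant genes left out, DESeq2 1.42.0, other filters and thresholds, each sample left out in turn, and the replicate number as a block. The procedure was tested on simulated counts. Cyt-b5, FeCH, tgo and Mhc were among listed genes not analysed here.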

Additional observations from a re-analysis of the deposited data

How the results depend on the processing

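Alternatives close to the main fit were RLE and upper-quartile scaling, DESeq2, no filter on low counts, and the 20 most abundant genes left out. Under these, the counts of 25 higher and 17 lower P450 genes stayed within 1.5 times. Their median log2 fold change of 0.67 moved by less than 0.28. That limit is the pooled within-group SD of each sample's median P450 deviation from the gene means on the log2 scale. Scaling by total counts alone gave 40 higher, 9 lower and a median of 1.66, and the direction turned for Cyp6u1 (0.54) and Cyp12b2 (0.17). Requiring at least 10 counts in every sample left 55 P450 genes, 17 higher and 16 lower, and a median of 0.22. At an adjusted p of 0.01, 10 genes were lower. With each sample left out in turn, 20 to 27 genes were higher and 11 to 19 lower (11 without tumour-bearing replicate 1), and the median was 0.59 to 0.79. Of the 42 called genes, 30 kept their call without each sample and 12 lost it in at least 1 such fit, and none changed sign. With the replicate number as a block, 20 genes were higher and 13 lower (median 0.82), and 9 of the 42 called genes lost their call (Cyp4ac1, Cyp4ad1, Cyp4c3, Cyp4d14, Cyp4d21, Cyp4g15, Cyp6u1, Cyp49a1 and Cyp313a4). The labels give only a replicate number and do not say if same-numbered samples were paired. Deviations of same-numbered samples from their group means correlated at −0.05, 0.07 and 0.11. Over all pairs of a control and a tumour-bearing sample the range was −0.13 to 0.14. With 3 samples a group this cannot decide whether they were paired. Genes of low counts, among them Cyp4ad1, Cyp4d21 and Cyp49a1, are those in which depth limits the values most.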
